A study of Homo sapiens with 12 samples.

Results

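Transcript levels of 9 kidney genes, namely the lineage transcription factors PAX2, PAX8, HNF4A and LHX1 and the tubule markers CDH16, ANPEP, MME, GGT1 and LRP2, were followed by RNA-seq in clear cell renal carcinoma cells. They were chosen by name from the 38021 gene names in the table of counts. The cells were 786O, an established human clear cell renal cell carcinoma line that lacks functional VHL, and WT8, a line derived from 786O that expresses wildtype VHL. VHL is the ubiquitin ligase subunit that marks the hypoxia-inducible factors HIF for degradation. Each line carried a lentiviral pLKO.1 construct, either shControl, which holds a scrambled sequence, or shBMAL1, an shRNA against the circadian transcription factor BMAL1. All 4 groups (786O shControl, 786O shBMAL1, WT8 shControl and WT8 shBMAL1) were selected for 1 week in 2.5 µg/mL puromycin and then kept in 1.25 µg/mL, and each had 3 biological replicates. WT8 is a single derived line, so that the effect of VHL and any other difference between the lines cannot be told apart.

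PAX2, PAX8 and LHX1 act early in the intermediate mesoderm and in the formation of nephrons, and PAX2 and PAX8 stay on in many renal carcinomas, where PAX8 is used in pathology as a marker of renal origin. HNF4A drives the maturation of the proximal tubule, the segment from which clear cell carcinoma is thought to arise. Mature proximal tubule cells carry a brush border rich in the peptidases ANPEP (CD13) and MME (CD10, neprilysin) and in GGT1, the gamma-glutamyltransferase that cleaves extracellular glutathione, and they take up filtered protein through LRP2 (megalin). CDH16 encodes kidney-specific cadherin, an adhesion protein of tubular epithelium.

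Total counts ran from 33182025 to 36477509 per library. The labels were checked first. The target of the shRNA, BMAL1, which the table lists as ARNTL, had 378 to 464 counts per library in 786O shControl and 128 to 142 in 786O shBMAL1. In WT8 cells it had 309 to 355 with shControl and 56 to 72 with shBMAL1. VHL had 602 to 740 counts per library over both groups of 786O cells. In WT8 cells it had 31578 to 37514 with shControl and 23607 to 24876 with shBMAL1. Both checks matched the labels. VHL itself was thus lower with shBMAL1 in WT8 cells, by a log2 difference of -0.60 (SE 0.05, edgeR adjusted p 6.78e-13), and its part in the results in WT8 cells was not tested. Of 9 leukocyte and endothelial markers, PTPRC and CD3E had at most 1 count in any library. The summed level of the list, most of it from CD68, was 41.5 to 43.3 CPM (counts scaled to a common library total) in 786O shControl and 31.9 to 36.6 CPM in 786O shBMAL1. In WT8 cells it was 26.3 to 32.6 CPM with shControl and 18.3 to 22.3 CPM with shBMAL1. The endothelial markers were split, at low counts. PECAM1 and VWF were called higher in WT8 shControl than in 786O shControl, while CDH5 and CLDN5 had too few counts to be tested. CDH5 had 0 to 9 counts in 786O shControl and 0 in WT8 shControl, and CLDN5 had 3 to 4 and 0 to 1. PECAM1 had 0 counts in 786O shControl and 21 to 32 in WT8 shControl, and VWF had 0 to 5 and 12 to 22. The WT8 shControl libraries stood apart in 15 cell cycle genes, whose summed level was 673.3 to 703.8 CPM there and 3113 to 3440 CPM in the other 9 libraries. All 15 were called lower in WT8 shControl than in 786O shControl, and all 15 were called higher with shBMAL1 in WT8 cells. These differences move with the comparisons that use WT8 shControl, and their part in those results was not tested.

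The members differed widely in abundance. PAX8 was the most abundant by count, with 320155 counts summed over the 12 libraries, and GGT1 followed with 50254. HNF4A had 20 counts in all, in 5 libraries, and LRP2 had 6, in 3 libraries. A level divided by the length of the exons of each gene allows members to be compared. In 786O shControl, GGT1 had 46.6 ± 1.98 CPM per kb (SD, n = 3) and PAX8 42.5 ± 0.497, followed by ANPEP with 16.2 ± 0.369. CDH16, LHX1, PAX2 and MME lay between 1.17 and 2.69 CPM per kb in that group. In WT8 shControl the order was different, with PAX8 at 181.1 ± 4.94 CPM per kb, CDH16 at 20.5 ± 0.783, GGT1 at 12.4 ± 0.294 and PAX2 at 3.77 ± 0.321. LHX1 and ANPEP were at 0.454 ± 0.0224 and 0.0813 ± 0.0255 CPM per kb there, and MME was at 0.

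**Figure D1:**
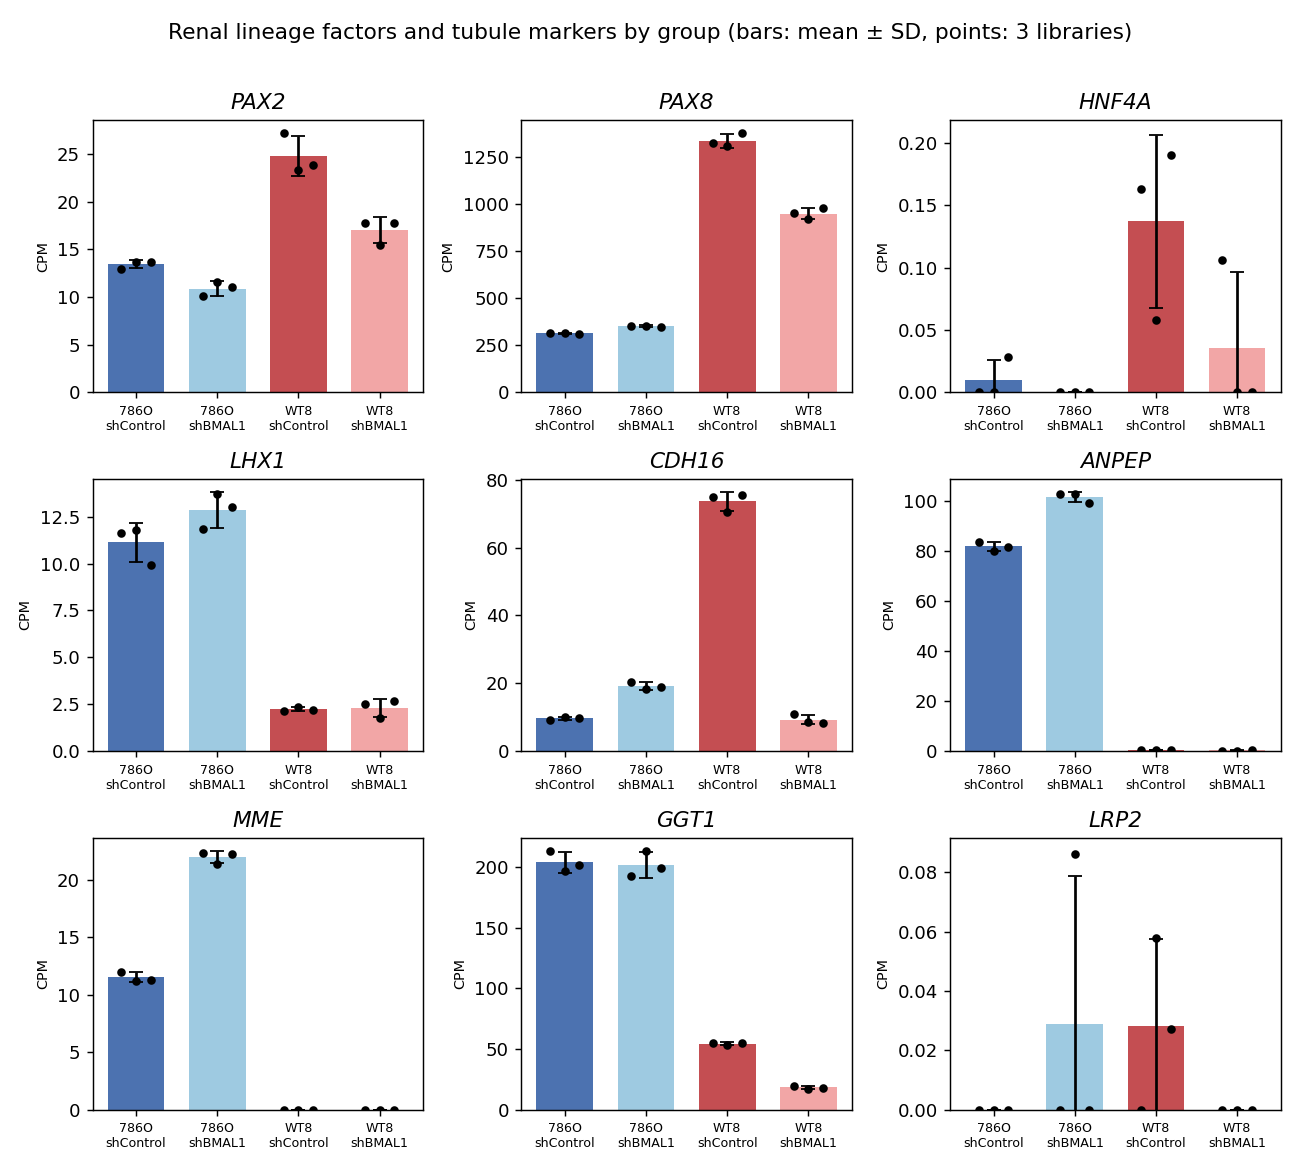
Level of the 9 members by group in CPM, with a linear axis from 0 of its own for each gene, bars for the mean, error bars for the SD and a point for each library (n = 3). PAX8 and PAX2 are highest in WT8 shControl, LHX1, ANPEP, MME and GGT1 are highest in the 786O groups, CDH16 is high in WT8 shControl alone at 70.4 to 75.5 CPM, and HNF4A and LRP2 lie at or near 0.

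The DNA just upstream of the start sites of 4 members is shown, since PAX2 and PAX8 were the lineage factors higher in WT8 and ANPEP and MME the markers at or near 0 there. The sequences are the 250 bases before an annotated start in RefSeq (GRCh38.p14), in the direction of transcription, and 7 of the 9 members, all but CDH16 and LHX1, had an entry, with 14 windows. Capitals mark the core of the HIF binding motif, ACGTG or GCGTG, on either strand. PAX2 had 2 windows and MME had 4, and for each the 1 window with a match is printed, while the PAX2 window and the 3 MME windows left out held none. The PAX2 window shown is chr10:100735146-100735395 (plus strand), the PAX8 window chr2:113278922-113279171 (minus strand), the ANPEP windows chr15:89814853-89815102 and chr15:89806629-89806878 (both minus strand) and the MME window shown chr3:155080069-155080318 (plus strand).
PAX2 start 1: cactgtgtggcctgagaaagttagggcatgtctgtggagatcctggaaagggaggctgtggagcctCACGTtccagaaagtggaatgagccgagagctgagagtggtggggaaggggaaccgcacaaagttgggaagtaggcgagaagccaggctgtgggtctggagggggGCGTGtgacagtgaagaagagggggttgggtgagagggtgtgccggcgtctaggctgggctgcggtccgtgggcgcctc
PAX8: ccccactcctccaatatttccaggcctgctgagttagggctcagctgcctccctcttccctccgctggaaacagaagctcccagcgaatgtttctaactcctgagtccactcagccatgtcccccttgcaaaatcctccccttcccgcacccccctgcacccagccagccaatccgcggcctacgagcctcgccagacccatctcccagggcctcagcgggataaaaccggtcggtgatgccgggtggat
ANPEP start 1: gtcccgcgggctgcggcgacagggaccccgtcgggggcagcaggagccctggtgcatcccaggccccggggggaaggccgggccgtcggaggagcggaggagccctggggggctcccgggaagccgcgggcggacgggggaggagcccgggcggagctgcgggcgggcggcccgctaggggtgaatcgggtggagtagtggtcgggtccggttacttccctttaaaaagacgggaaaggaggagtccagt
ANPEP start 2: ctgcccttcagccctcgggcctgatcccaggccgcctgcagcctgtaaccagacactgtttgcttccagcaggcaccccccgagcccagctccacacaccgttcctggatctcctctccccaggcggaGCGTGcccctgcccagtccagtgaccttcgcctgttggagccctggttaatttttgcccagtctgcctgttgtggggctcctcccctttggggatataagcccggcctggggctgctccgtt
MME start 4: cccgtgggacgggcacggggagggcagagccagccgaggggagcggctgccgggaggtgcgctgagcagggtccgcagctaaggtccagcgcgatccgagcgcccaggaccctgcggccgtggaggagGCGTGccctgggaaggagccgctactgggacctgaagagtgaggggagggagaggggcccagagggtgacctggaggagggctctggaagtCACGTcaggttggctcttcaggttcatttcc

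Either HIF core was found in 4 of the 14 windows, namely those printed for PAX2, MME and the second start of ANPEP and the window of LRP2, and in 43.2% of all 35116 windows. The E-box CACGTG, the motif bound by BMAL1 with CLOCK, which contains ACGTG, was in 0 of the 14 and in 6.34% of all windows. The first ANPEP window was rich in CpG, with 26 CpG against a median of 11 over all windows, while the second had 9. The windows are not all separate stretches of DNA, as some of those of MME overlap. Such matches describe the letters in these windows only, and the counts do not say which start was used.

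WT8 and 786O cells with shControl were compared to ask how the members differ with the VHL-expressing line. The lineage factors did not move together. PAX8 and PAX2 were higher in WT8 cells and LHX1 was lower, and of the tubule markers CDH16 was higher while ANPEP, MME and GGT1 were lower. All 7 members with enough counts for the test were called at an adjusted p under 0.1, against 79.5% of all 16838 genes tested, with 3 of them higher and 4 lower, where 39.3% of genes were called higher and 40.1% lower. The libraries of the lines did not overlap for any of the 7, against 77.5% of genes. In RNA from whole cultures, fewer cells that express a gene and less RNA per cell cannot be told apart. HNF4A and LRP2 did not pass the filter on low counts. MME passed it through its counts in 786O cells alone, so that its call and its lack of overlap were fixed beforehand.

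PAX8 (GRCh37 chromosome 2, 113973574 to 114036498, minus strand) had 313.5, 316.6 and 309.3 CPM in the 786O shControl libraries and 353.0, 352.7 and 347.4 CPM in 786O shBMAL1. In WT8 it had 1322, 1306 and 1376 CPM with shControl and 949.3, 917.3 and 977.7 CPM with shBMAL1. No pair of groups overlapped, and the order was WT8 shControl, WT8 shBMAL1, 786O shBMAL1 and 786O shControl. Between the shControl groups PAX8 was 4.26-fold higher in WT8, with a log2 difference of 2.09 (standard error SE 0.04) and an adjusted p of 1.15e-31 by edgeR's quasi-likelihood test. The antisense gene PAX8-AS1 overlaps PAX8 on the other strand and had 59 to 527 counts in a library against at least 10745 for PAX8.

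PAX2 (chromosome 10, 102495153 to 102589701, plus strand) had 12.98, 13.7 and 13.7 CPM in 786O shControl and 10.1, 11.5 and 11.1 CPM in 786O shBMAL1. The WT8 libraries had 27.2, 23.3 and 23.9 CPM with shControl and 17.8, 15.5 and 17.8 CPM with shBMAL1. The 4 groups did not overlap here either, and both WT8 groups lay above both 786O groups. PAX2 was 1.84-fold higher in WT8 shControl than in 786O shControl (log2 0.88, SE 0.09, edgeR adjusted p 2.31e-11).

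LHX1 (chromosome 17, 35294084 to 35301912, plus strand), a LIM homeodomain factor of the early nephron, had 11.6, 11.8 and 9.92 CPM in 786O shControl and 11.8, 13.7 and 13.04 CPM in 786O shBMAL1. Its WT8 libraries had 2.15, 2.35 and 2.17 CPM with shControl and 2.52, 1.74 and 2.65 CPM with shBMAL1. Every 786O library was above every WT8 library, and the WT8 groups overlapped. LHX1 was 5.00-fold lower in WT8 shControl than in 786O shControl (log2 -2.32, SE 0.14, edgeR adjusted p 3.25e-17).

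CDH16 (chromosome 16, 66942025 to 66952820, minus strand) had 9.19, 10.0 and 9.75 CPM in 786O shControl and 20.4, 18.2 and 18.8 CPM in 786O shBMAL1. WT8 cells had 75.0, 70.4 and 75.5 CPM with shControl and 10.8, 8.56 and 8.27 CPM with shBMAL1. WT8 shControl was highest and 786O shBMAL1 next, while 786O shControl and WT8 shBMAL1 overlapped. With shControl, CDH16 was 7.63-fold higher in WT8 (log2 2.93, SE 0.08, edgeR adjusted p 7.54e-27).

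ANPEP (chromosome 15, 90328126 to 90358633, minus strand) had 2868, 2796 and 2874 counts in the 786O shControl libraries and 3581, 3569 and 3456 in 786O shBMAL1. In WT8 it had 11, 19 and 14 counts with shControl and 1, 7 and 15 with shBMAL1. The lines were thus separated by more than any other called difference among the members that had counts in both. ANPEP had 81.8 ± 1.86 CPM (SD, n = 3) in 786O shControl and 0.410 ± 0.129 CPM in WT8 shControl, 199-fold less (log2 -7.64, SE 0.14, edgeR adjusted p 1.29e-28).

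MME (chromosome 3, 154741913 to 154901493, plus strand) had 411, 392 and 397 counts in the 786O shControl libraries and 778, 743 and 774 in 786O shBMAL1, and 0 in all 6 WT8 libraries. Against a floor of 3 counts per library, MME was at least 138-fold lower in WT8 shControl than in 786O shControl (edgeR adjusted p 3.59e-24). The bound may be too high if both mates of a read pair were counted, since 3 counts would then come from fewer fragments.

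GGT1 (chromosome 22, 24990778 to 25024972, plus strand) had 213.4, 196.6 and 201.4 CPM in 786O shControl and 192.1, 213.3 and 198.8 CPM in 786O shBMAL1. The level in WT8 was 55.4, 53.0 and 55.0 CPM with shControl and 20.0, 17.4 and 18.1 CPM with shBMAL1. The 786O groups overlapped, and the WT8 groups lay below them and apart from each other. GGT1 was 3.74-fold lower in WT8 shControl than in 786O shControl (log2 -1.90, SE 0.05, edgeR adjusted p 2.36e-27). GGT1 has near-identical copies, and how reads shared with them were assigned is not known. GGT2 had 147 to 220 counts in 786O shControl and 35 to 66 in WT8 shControl, and GGTLC2 had 182 to 209 and 43 to 60, so that these copies moved in the same direction as GGT1 and their values are uncertain.

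**Figure D2:**
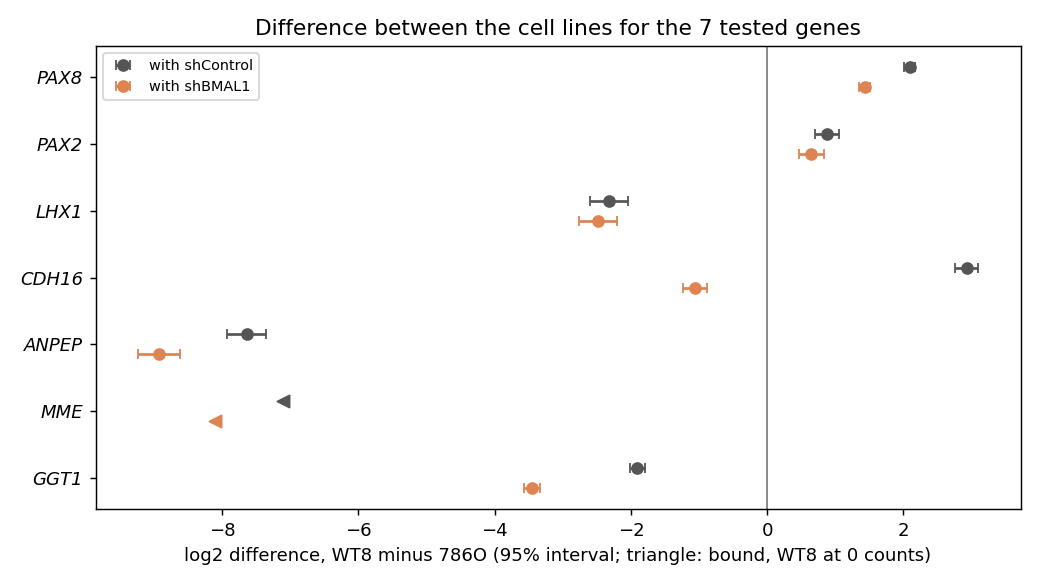
Log2 difference between WT8 and 786O cells for the tested members, with shControl and with shBMAL1, with 95% intervals from the fit; MME is drawn at its bound against 3 counts. PAX8, PAX2 and CDH16 lie above 0 with shControl and LHX1, GGT1, ANPEP and MME below, and CDH16 lies on the other side of 0 with shBMAL1. The intervals of ANPEP are likely too narrow.

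The same lines were also compared with shBMAL1 in both, a comparison added after the data had been seen. Again all 7 tested members were called, against 73.0% of genes, 2 of them higher and 5 lower, against 35.9% and 37.1%. The groups did not overlap for any of the 7, against 71.0% of genes. MME had no counts in WT8 cells and passed the filter on low counts through the other line alone. Its call and its lack of overlap were thus fixed beforehand in this comparison as well. PAX8 (log2 1.43, SE 0.04) and PAX2 (log2 0.65, SE 0.09) were higher in WT8 here too, and LHX1 (log2 -2.48, SE 0.14) and GGT1 (log2 -3.45, SE 0.06) were lower. ANPEP, with 1 to 15 counts in the WT8 shBMAL1 libraries, was 488-fold lower (log2 -8.93, SE 0.15) and MME at least 275-fold lower. DESeq2 gave larger SEs for ANPEP, 0.31 here and 0.22 with shControl, so that its SEs from edgeR are likely too small. CDH16 alone among the 7 had the opposite sign, at log2 -1.06 (SE 0.09, edgeR adjusted p 3.25e-13) against 2.93 with shControl.

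In 786O cells, shBMAL1 was compared with shControl to ask which members change with shBMAL1 in the line without functional VHL. In either line, loss of BMAL1 and any other effect of the shRNA cannot be told apart. CDH16 and MME rose most, ANPEP and PAX8 rose by less, and PAX2 fell. The 5 members called of 7 tested stand against 48.9% of all genes tested, and 4 of the 5 were higher, against 24.5% of genes called higher and 24.4% called lower. CDH16 rose from 9.65 ± 0.418 to 19.1 ± 1.09 CPM (SD, n = 3), a 1.98-fold rise (log2 0.99, SE 0.09, edgeR adjusted p 1.08e-11). MME rose from 11.5 ± 0.431 to 22.0 ± 0.524 CPM, 1.91-fold (log2 0.94, SE 0.10, edgeR adjusted p 3.02e-09).

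The remaining calls in 786O cells were of small size. ANPEP rose from 81.8 ± 1.86 to 101.6 ± 2.02 CPM (log2 0.31, SE 0.07, edgeR adjusted p 8.01e-04), and PAX8 rose from 313.1 ± 3.67 to 351.0 ± 3.11 CPM (log2 0.16, SE 0.04, adjusted p 0.00103). PAX2 fell from 13.5 ± 0.415 to 10.9 ± 0.746 CPM (log2 -0.31, SE 0.09, edgeR adjusted p 0.00663). LHX1 was not called (log2 0.21, 95% interval -0.02 to 0.44, edgeR adjusted p 0.143), although its lowest shBMAL1 library lay just above its highest shControl library. Fitted on the 786O libraries alone it was called (log2 0.21, edgeR adjusted p 0.0803). GGT1 was not called either, with a log2 difference of -0.02 (95% interval -0.12 to 0.08, edgeR adjusted p 0.815). For 6 of the 7 the groups did not overlap, against 50.9% of genes.

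In WT8 cells the same comparison showed lower levels in every member called. The fall was steepest for CDH16, followed by GGT1, and PAX2 and PAX8 fell by less. Here 5 of 7 members (71.4%) were called, near the 69.8% of all genes tested, all 5 lower, against 36.9% of genes called lower. The 7 include MME, which had no counts in WT8 cells and could not be called or separated there. For 4 of the 7 (CDH16, GGT1, PAX2 and PAX8) the groups did not overlap, against 67.6% of genes. CDH16 fell from 73.6 ± 2.81 to 9.21 ± 1.38 CPM (SD, n = 3), 7.995-fold (log2 -3.00, SE 0.08, edgeR adjusted p 8.23e-27). GGT1 fell from 54.4 ± 1.29 to 18.5 ± 1.35 CPM, 2.95-fold (log2 -1.56, SE 0.06, edgeR adjusted p 5.96e-23). Its copy GGT2 also fell (log2 -1.42, SE 0.29, edgeR adjusted p 7.27e-05).

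PAX2 fell from 24.8 ± 2.11 to 17.1 ± 1.33 CPM in WT8 cells (log2 -0.54, SE 0.08, edgeR adjusted p 7.86e-07), and PAX8 fell from 1335 ± 36.4 to 948.1 ± 30.2 CPM (log2 -0.49, SE 0.04, edgeR adjusted p 2.57e-13). LHX1 was not called, with a log2 difference of 0.05 (95% interval -0.28 to 0.38, edgeR adjusted p 0.7996). MME had 0 counts in both WT8 groups, so that no difference could be measured. The 15 cell cycle genes moved the other way in this comparison, with a median log2 change of 2.27, and their part in the falls was not tested.

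ANPEP was called lower in WT8 cells as well (log2 -0.98, SE 0.40, edgeR adjusted p 0.0329), but its groups overlapped and it had at most 19 counts in a library. The call was lost without WT8 shControl replicate 2 (log2 -0.72, edgeR adjusted p 0.173) and without WT8 shBMAL1 replicate 1 (log2 -0.46, adjusted p 0.278), and also when the WT8 libraries were fitted alone (log2 -0.96, adjusted p 0.124). Over all fits that left out 1 library its log2 change ran from -1.89 to -0.46.

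**Figure D3:**
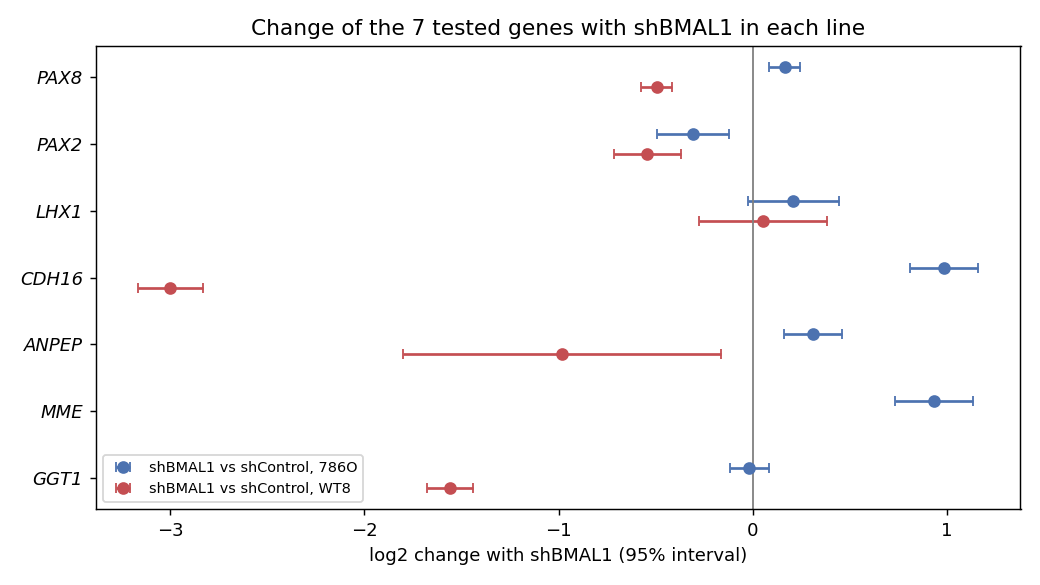
Log2 change with shBMAL1 against shControl for the tested members in 786O and in WT8 cells, with 95% intervals from the fit; MME has no WT8 point, as all 6 WT8 libraries had 0 counts. CDH16 rose by 0.99 in 786O cells and fell by 3.00 in WT8 cells, and GGT1 fell by 1.56 in WT8 cells and had an interval of -0.12 to 0.08 in 786O cells.

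Whether the change with shBMAL1 differed between the lines was tested as an interaction, the log2 change in WT8 minus that in 786O cells. The target itself fell further in WT8, as ARNTL was 5.57-fold lower with shBMAL1 there and 3.08-fold lower in 786O cells (interaction -0.86, SE 0.19, edgeR adjusted p 3.68e-04), and the part of this difference in the members' interactions was not tested. The interaction was called for PAX8, CDH16, ANPEP and GGT1, 4 of 7 members against 56.0% of genes, in each case with the more negative change in WT8, as for 28.6% of genes. No interaction could be measured for MME, which is among the 7. CDH16 had the interaction of largest size among the 4 called, at -3.99 (SE 0.12, 95% interval -4.23 to -3.74, edgeR adjusted p 2.91e-25). GGT1 followed at -1.54 (SE 0.08, adjusted p 5.61e-19) and PAX8 at -0.66 (SE 0.06, adjusted p 2.99e-12).

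The ANPEP interaction of -1.29 (SE 0.41, edgeR adjusted p 0.00876) rests on the low counts in WT8, and ran from -2.20 without 1 library to -0.77 without another, called each time. PAX2 fell in both lines, and its interaction was not called (log2 -0.24, 95% interval -0.49 to 0.02, edgeR adjusted p 0.114). LHX1 had an interaction of -0.16 (95% interval -0.56 to 0.25, adjusted p 0.545). Of the 7, PAX2, PAX8, CDH16 and ANPEP were called in both comparisons of shBMAL1 and between the shControl groups, 4 members against 32.3% of genes. The comparisons share the WT8 shControl or the 786O shControl libraries, so that a high or low value in those libraries enters more than 1 of them. A member at a high level in WT8 shControl therefore counts at once toward the line difference and toward a fall with shBMAL1.

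HNF4A (chromosome 20, 42984339 to 43061485, plus strand), the nuclear receptor of the mature proximal tubule, had 0, 0 and 1 counts in 786O shControl and 0 in all 786O shBMAL1 libraries. In WT8 it had 6, 2 and 7 counts with shControl and 4, 0 and 0 with shBMAL1. LRP2 (chromosome 2, 169983619 to 170219044, minus strand) had 0 counts in 786O shControl, 0, 3 and 0 in 786O shBMAL1, 0, 2 and 1 in WT8 shControl and 0 in WT8 shBMAL1. Both transcripts were thus at or near the floor of 3 counts, which corresponds to 0.0797 to 0.0875 CPM, in nearly all libraries. At this depth no difference in LRP2 was detectable, and neither defining gene of mature proximal tubule was present at more than 7 counts in a library.

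Lists of related kidney genes were read beside the members. A listed gene with counts in 1 line alone passed the low-count filter through that line, so that its direction between the lines was fixed beforehand. Over all genes tested, 24.5% were called higher and 24.4% lower with shBMAL1 in 786O cells, 32.9% and 36.9% in WT8 cells, and 39.3% and 40.1% in WT8 against 786O shControl. Of 19 tested genes in a list of 31 other proximal tubule genes, 17 were lower with shBMAL1 in WT8 cells and 0 higher, where 36.9% and 32.9% of all genes were. Their median log2 change was -1.13, where that of all genes was -0.04. In 786O cells 6 were higher and 4 lower, with a median of 0.08. In the line comparison 13 were higher in WT8 and 6 lower. AQP1, the water channel of the proximal tubule, rose from 0.143 ± 0.1501 CPM in 786O shControl to 9.92 ± 0.889 CPM in WT8 shControl (log2 6.08, SE 0.32). With shBMAL1 it fell 3.43-fold in WT8 (log2 -1.78, SE 0.20, edgeR adjusted p 3.30e-09). MIOX, the myo-inositol oxygenase of proximal tubule, fell 3.70-fold with shBMAL1 in 786O cells (log2 -1.89, SE 0.11), and the phosphate transporter family member SLC17A3 rose 2.16-fold there (log2 1.11, SE 0.23). The scaffold protein PDZK1 went from 87.5 to 168.3 CPM with shBMAL1 in 786O cells and from 108.4 to 41.8 CPM in WT8 cells, an interaction of -2.32 (SE 0.08, edgeR adjusted p 1.25e-23).

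Brush border peptidases other than ANPEP and MME gave no common direction. Of 6 tested, 3 rose and 1 fell with shBMAL1 in 786O cells, and 2 rose and 3 fell in WT8 cells. Between the lines 2 were higher in WT8 and 3 lower. ENPEP, aminopeptidase A, was 6.86-fold higher in WT8 shControl than in 786O shControl (log2 2.78, SE 0.05, edgeR adjusted p 7.84e-34), the reverse of ANPEP. With shBMAL1 it rose in 786O cells (log2 0.73, SE 0.05) and fell in WT8 cells (log2 -0.57, SE 0.04). DPP4, the dipeptidyl peptidase CD26, fell 2.59-fold with shBMAL1 in WT8 cells (log2 -1.38, SE 0.05).

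Of the 16 tested genes among 27 other renal transcription factors, 5 rose and 5 fell with shBMAL1 in 786O cells, 4 rose and 5 fell in WT8 cells, and 6 were higher and 9 lower in WT8 than in 786O cells. HNF4G, the paralogue of HNF4A, was present where HNF4A was not, at 7.86 ± 0.656 CPM in 786O shControl. It was 133-fold lower in WT8 shControl, at 0.058 ± 0.1005 CPM and 0 to 6 counts in a library (log2 -7.06, SE 0.34, edgeR adjusted p 5.55e-20). The fold and SE of HNF4G rest on these few counts and are uncertain. MECOM fell with shBMAL1 in 786O cells (log2 -0.64, SE 0.08) and WT1 rose (log2 0.43, SE 0.09). TFAP2A fell in WT8 cells (log2 -0.58, SE 0.08) and HOXB7 rose (log2 0.74, SE 0.10).

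Genes of other nephron segments and of injured tubule were counted in the same way. Of 15 tested genes of distal nephron and collecting duct, 11 were higher in WT8 than in 786O cells and 3 lower, against 39.3% and 40.1% of all genes. Among the 15, AVPR2, SLC4A1 and TRPM6 had at most 2 counts in any 786O library and passed the filter through WT8 cells alone. CLDN16, a claudin of the thick ascending limb named after its values were seen, had 2 to 9 counts in 786O shControl and 2298 to 2842 in WT8 shControl. KRT19, an epithelial keratin, was 438-fold lower in WT8 shControl, where it had 14 to 16 counts in a library (log2 -8.78, SE 0.10). The adhesion molecule EPCAM was at least 111-fold lower there. With shBMAL1, 4 of the 15 rose and 4 fell in 786O cells, and 2 rose and 8 fell in WT8 cells. AQP3 went from 1.02 to 4.70 CPM with shBMAL1 in 786O cells and from 1.66 to 0.615 CPM in WT8 cells. Its interaction was -3.64 (SE 0.37, edgeR adjusted p 1.87e-10). All 5 tested podocyte genes were lower in WT8 than in 786O cells. In WT8 cells 4 of them fell with shBMAL1 and 1 rose, and in 786O cells 2 fell and 1 rose. PODXL, podocalyxin, fell 2.52-fold in 786O cells (log2 -1.33, SE 0.09) and 6.31-fold in WT8 cells (log2 -2.66, SE 0.13).

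Of 14 genes of injured or progenitor tubule, 8 rose and 2 fell with shBMAL1 in 786O cells, while 2 rose and 11 fell in WT8 cells. The shares over all genes were 24.5% and 24.4% in 786O cells and 32.9% and 36.9% in WT8 cells. Between the lines 9 were higher in WT8 and 5 lower. CDH6, a cadherin of the developing proximal tubule, rose 2.78-fold with shBMAL1 in 786O cells (log2 1.48, SE 0.05, edgeR adjusted p 4.24e-23). In WT8 cells it went from 60.5 to 36.8 CPM, an interaction of -2.19 (SE 0.07, edgeR adjusted p 6.99e-24). CD24 fell 7.10-fold with shBMAL1 in WT8 cells (log2 -2.83, SE 0.04) and SPP1, osteopontin, 5.28-fold (log2 -2.40, SE 0.04). VCAM1 was 540-fold lower in WT8 shControl, where it had 12 to 15 counts in a library, than in 786O shControl (log2 -9.08, SE 0.12). CLU, clusterin, was 28.4-fold higher in WT8 shControl (log2 4.83, SE 0.07).

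The partners of LRP2 and GGT1 were measured although LRP2 was near 0. Of 8 megalin partners, 1 rose and 4 fell with shBMAL1 in 786O cells, 2 rose and 5 fell in WT8 cells, and 3 were higher and 3 lower in WT8 than in 786O cells. DAB2, the endocytic adaptor of megalin, was 3.31-fold lower in WT8 (log2 -1.73, SE 0.07) and fell with shBMAL1 in WT8 cells (log2 -0.89, SE 0.07). SLC9A3R1 fell with shBMAL1 in 786O cells (log2 -1.17, SE 0.06) and in WT8 cells (log2 -0.86, SE 0.06). LRPAP1, the chaperone of megalin, fell by less with shBMAL1 in 786O cells (log2 -0.45, SE 0.05). Of 10 genes of the glutathione cycle in which GGT1 acts, 0 rose and 4 fell in 786O cells, while 7 rose and 1 fell in WT8 cells. In WT8 cells GGT1 thus fell while GGCT, the gamma-glutamylcyclotransferase of the same cycle, rose 2.08-fold (log2 1.06, SE 0.06, edgeR adjusted p 1.46e-18). Between the lines 4 of the 10 were higher in WT8 and 3 lower. Of 18 tested paralogues of the members, 4 rose and 5 fell in 786O cells, 8 rose and 5 fell in WT8 cells, and 7 were higher and 10 lower in WT8 than in 786O cells.

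**Figure D4:**
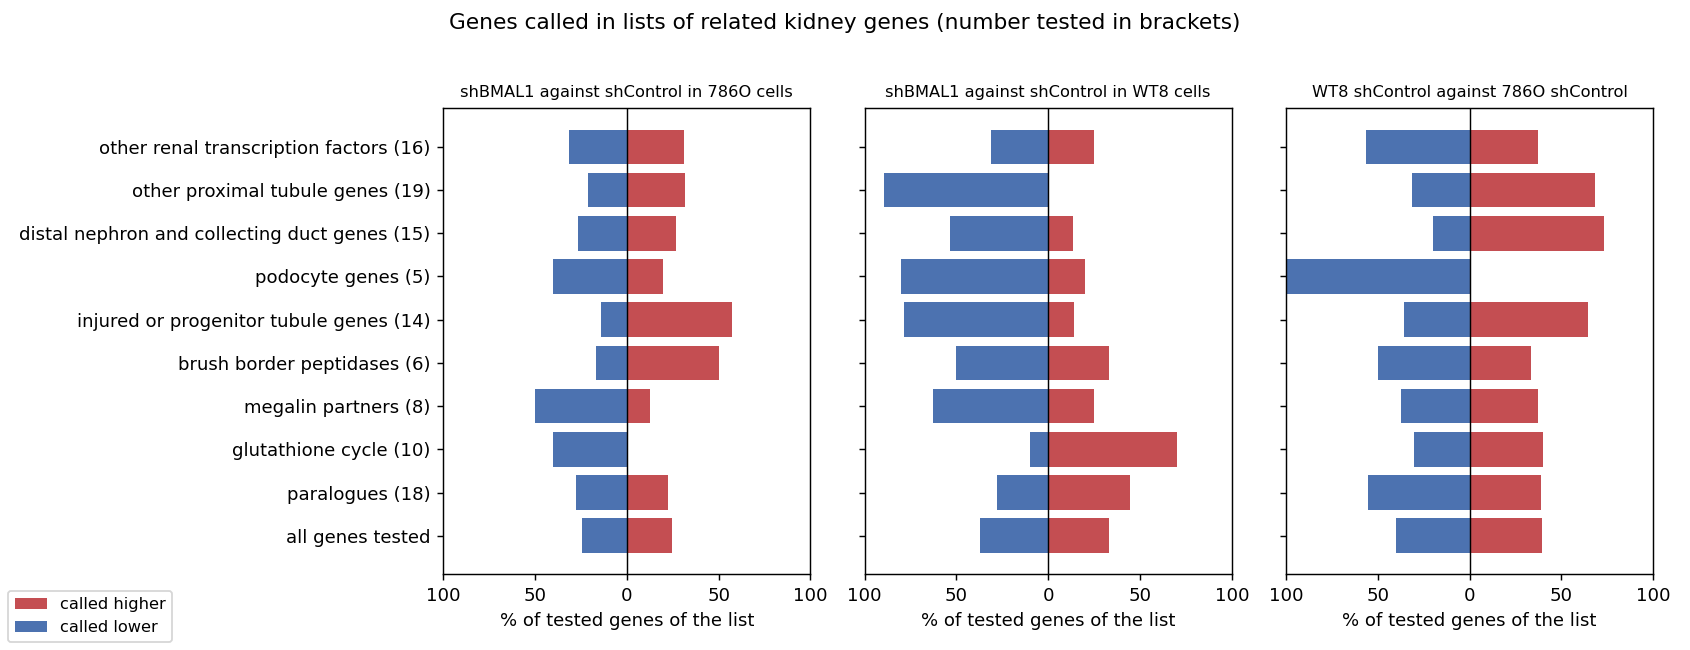
Share of the tested genes of each related list, in percent, that were called higher (right of 0) or lower (left of 0) in 3 comparisons, with all genes tested as the last bar. In WT8 cells 89.5% of the tested other proximal tubule genes were called lower with shBMAL1, against 36.9% of all genes.

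The genes most like each member were found by Pearson's r of log2 level over the 12 libraries, among 12948 genes with a mean of at least 50 counts. PAX8 was followed most closely by ANKRD10 (r = 0.998) and KCNMB1 (r = 0.997), PAX2 by PRSS23 (r = 0.988) and TNF (r = 0.987), and LHX1 by INHBA and CCL2 (both r = 0.994). CDH16 was nearest to APLP2 (r = 0.994) and LOC152225 (r = 0.990), and GGT1 to MET (r = 0.999) and SLC2A1 (r = 0.998). ANPEP was nearest to SLC12A7 and MXRA5 (both r = 0.999). MME was nearest to CACNA2D1 and VSTM4, with r of 1.00 after rounding. Among the members themselves, ANPEP and MME had r = 0.993, LHX1 had r = 0.991 with each of them, and PAX2 and PAX8 had r = 0.902. CDH16 had r of at most 0.640 with any other member. The 12 points fall into 4 groups and share their libraries, so that these values describe the pattern over the groups.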

How the data were processed

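RNA of 12 cultures, 3 in each of 4 groups, was measured by RNA-seq. The authors deposited estimated counts for each gene, which were not normalized. Libraries were stranded mRNA libraries per the labels. Per the methods of the study, they were read as pairs on a BGISEQ-500 and reads were aligned to GRCh37 with SeqMan NGen and counted in ArrayStar, whereas the submitters' processing notes name STAR, DESeq2 and hg38. The annotation, the use of strand and the handling of reads with several alignments are not given in the sources used here. The tests had been planned for plain counts, but 5.67% of the values other than the stand-in for 0 (0.028, 47.0% of all values) were not whole. The stand-in was set to 0, lines of the same name were summed and values were rounded. Counts of 2 (14891 values) were more frequent than counts of 1 (11390 values), as when both mates of a pair are counted.

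Of 26938 genes with a count, filterByExpr kept 16838, among them 7 of the 9 members. Libraries were scaled by TMM (factors 0.948 to 1.04), and a mean per group was fitted by the robust quasi-likelihood F test of edgeR 4.0.16 (R 4.3.3). Benjamini-Hochberg adjustment ran over the whole table, with calls at an adjusted p under 0.1, the false discovery rate of the study. The common biological coefficient of variation was 5.70%. The script was tested on simulated data. The SE was taken as |log2|/√F, which can be too small for a very large difference with few counts in 1 group. This concerns ANPEP, VCAM1, KRT19, HNF4G and AQP1 between the lines. A group with at most 3 counts in every library gives a fold as a bound against 3 counts, which covers counting error only, since amplified reads are not independent molecules. Gene positions and exon lengths are from GENCODE version 44 on GRCh37.

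All members were named. Of each related list, written from memory, at most 2 genes per comparison were eligible, those called with the largest change, a mean of at least 50 counts and no overlap in CPM. For each member with that mean the 2 most correlated genes were named. GGTLC2, CLDN16, PECAM1, VWF, CDH5, CLDN5, AVPR2, SLC4A1 and TRPM6 were named after their values were seen. The members and lists were chosen with earlier results of these data known. The alternatives tried were DESeq2 1.42.0, other scalings and filters, fits of the compared groups alone, a replicate block, stricter thresholds and leaving out each library.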

Additional observations from a re-analysis of the deposited data

Results flagged for a closer look

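The change with shBMAL1 differed between the lines, by the interaction test in edgeR, for 4 members, each with the more negative change in WT8 cells. That is 4 of 7 tested members, or 57.1%, against 56.0% of all genes tested, so the count is near the background. The interaction, as log2 change in WT8 minus that in 786O cells, was -0.66 for PAX8, -3.99 for CDH16, -1.29 for ANPEP and -1.54 for GGT1. PAX8 and CDH16 rose in 786O cells and fell in WT8 cells, with no overlap between shControl and shBMAL1 in either line. GGT1 was called in WT8 cells alone. ANPEP had at most 19 counts in any WT8 library.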

How the results depend on the processing

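Of 621 values of the members under other settings, 606 kept their direction and their side of the threshold. With a fold change over 1.5 also required, 2 members (CDH16 and MME) stayed called in 786O cells and 3 (ANPEP, CDH16 and GGT1) in WT8 cells, of 7 tested, against 14.3% and 35.9% of all genes. LHX1 in WT8 cells changed sign under upper quartile scaling (log2 -0.023), and that scaling moved the median of all genes to 0.11 in the line comparison and to -0.12 with shBMAL1 in WT8 cells. Without the filter on low counts, 8 of 9 members were called between the lines with shControl, against 53.8% of 26938 genes. HNF4A was among the 8, at 2 to 7 counts per library in WT8 shControl and 0 to 1 in 786O shControl. Without 1 library, values near 0 changed sign: GGT1 in 786O cells ran from -0.065 to 0.013, LHX1 in WT8 cells from -0.053 to 0.23 and the LHX1 interaction from -0.26 to 0.021. The PAX2 interaction was called with DESeq2 (log2 -0.25, adjusted p 0.0990), with RLE size factors (adjusted p 0.0905 in edgeR), with upper quartile scaling (log2 -0.30, adjusted p 0.0441 in edgeR), without 786O shBMAL1 replicate 1 (adjusted p 0.0765) and without WT8 shControl replicate 2 (adjusted p 0.0803). Its values without 1 library ran from -0.28 to -0.16. The cause was not tested.

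The replicate numbers did not pair the samples, as deviations of same-numbered libraries correlated at -0.08 to 0.09 over 18 pairs. With the replicate block, 8054 genes were called with shBMAL1 in 786O cells, 11624 in WT8 cells, 13268 between the lines and 9247 for the interaction, and 5, 5, 7 and 4 members. Depth limits HNF4A, LRP2 and, in WT8 cells, ANPEP and MME. Labels name the replicates as biological, but not whether the shRNA lines were made separately.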
